A study of Homo sapiens with 8 samples.

Results

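The collagen and laminin chains are the structural proteins of the extracellular matrix measured here in SHSY5Y cells, a human neuroblastoma line of neural crest origin. A chain was taken as a member when its gene symbol was COL or LAM followed by the chain code, and when a row of the array carried that symbol alone. This gave 53 genes of the 18377 with a value, 43 collagen chains and 10 laminin chains, and 3 further chains of these families are not analysed here. RNA was hybridised to 8 Human Gene 1.0 ST arrays, 2 biological replicates in each of 4 groups. V71 DF and PLKO DF were the stable lines of those codes after differentiation, V71 NDF and PLKO NDF the same lines in growth medium with serum. Differentiation took 5 days in retinoic acid at 10 µM and a further 3 days without serum in the neurotrophin BDNF at 2 nM. Cells of all 4 groups grew on plates coated with laminin. The arrays measured RNA of the cells, and neither the laminin of the coating nor protein laid down by the cells. Each code stands for 1 puromycin-selected stable line, and a difference between the lines cannot be told apart from a difference between those particular lines' histories. By the deposited treatment labels V71 was the control and PLKO the shRNA line, whereas in the study's methods pLKO.1-Puro is the empty control vector, which runs the other way. The shRNA of the methods targets IKBKAP. The level of that gene was not examined here and did not check the labels. Differences between lines are therefore given as V71 minus PLKO, and differences upon differentiation as DF minus NDF.

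Laminins are trimers of an alpha, a beta and a gamma chain that assemble into the sheet of a basement membrane, and the alpha chain carries the main sites for integrins and dystroglycan. Collagen IV forms the second network of that sheet, in most tissues as a trimer of 2 α1 chains, encoded by COL4A1, and 1 α2 chain, encoded by COL4A2. Fibrillar collagens such as types I and III form the cables of connective tissue, and collagen VI forms beaded filaments beside the basement membrane. In mouse F9 embryonal carcinoma cells, laminin and collagen IV chains are classical genes that increase with retinoic acid. Neural crest cells migrate and extend axons on laminin, and the Schwann cells that later cover peripheral axons make a basement membrane of their own.

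The 8 arrays were alike in overall level. Medians over all rows lay between 4.60 and 4.68 on the log2 scale and lower quartiles between 3.0 and 3.06. Of the 53 chains, 44 had all 4 group means at or above the mean lower quartile of the group's arrays, 4 (COL12A1, COL21A1, COL6A5 and COL8A1) were below it in every group, and 5 were below it in some. All 13 analysed markers of noradrenergic neuroblasts were above that level in every group, and 1 of the 6 analysed Schwann cell markers was below it in every group. By limma, 0 of these 6 were called in any comparison, with 0 at an unadjusted p under 0.05 between lines in NDF, 2 in DF, and 2 upon differentiation in V71 and 1 in PLKO.

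A gene was called when limma's adjusted p was under 0.05 and the fold was at least 1.5. By this rule 6 of the 53 chains were called in at least 1 of the 5 comparisons, LAMA4, LAMA1, LAMC1, COL4A1, COL4A2 and COL26A1, and 47 were called in none. Between the lines in NDF, 1 chain was called (1.89% of the chains, against 2.15% of all genes), and it was lower in V71, as were 1.54% of all genes, while 0 chains and 0.615% of all genes were higher. Between the lines in DF, 1 chain was called (1.89%, against 3.06% of all genes), and it was higher in V71, as were 1.81% of all genes, while 0 chains and 1.26% of all genes were lower. Upon differentiation in V71, 4 chains were called (7.55%, against 7.53% of all genes), 1 higher (against 3.98% of all genes) and 3 lower (5.66%, against 3.55% of all genes). Upon differentiation in PLKO, 4 chains were called (7.55%, against 7.04% of all genes), 1 higher (against 2.88% of all genes) and 3 lower (5.66%, against 4.16% of all genes). For the test of whether the change upon differentiation differed between the lines, 1 chain was called (1.89%, against 1.39% of all genes), with the more positive change in V71, as 1.09% of all genes had, and 0 chains and 0.305% of all genes had the more negative one. In each comparison the share of chains called was thus close to the share of all genes, and the collagen and laminin families as a whole did not stand apart by their counts. The median difference over the chains was -0.02 between lines in NDF, -0.04 between lines in DF, -0.03 upon differentiation in V71 and 0.01 upon differentiation in PLKO, and the medians over all genes lay between 0.00 and 0.01. The 2 groups did not overlap for 21 chains between lines in NDF (39.6%, against 47.5% of all genes) and for 20 chains between lines in DF (37.7%, against 45.7%). Upon differentiation they did not overlap for 29 chains in V71 (54.7%, against 55% of all genes) and for 21 in PLKO (39.6%, against 55.1%).

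**Figure D1:**
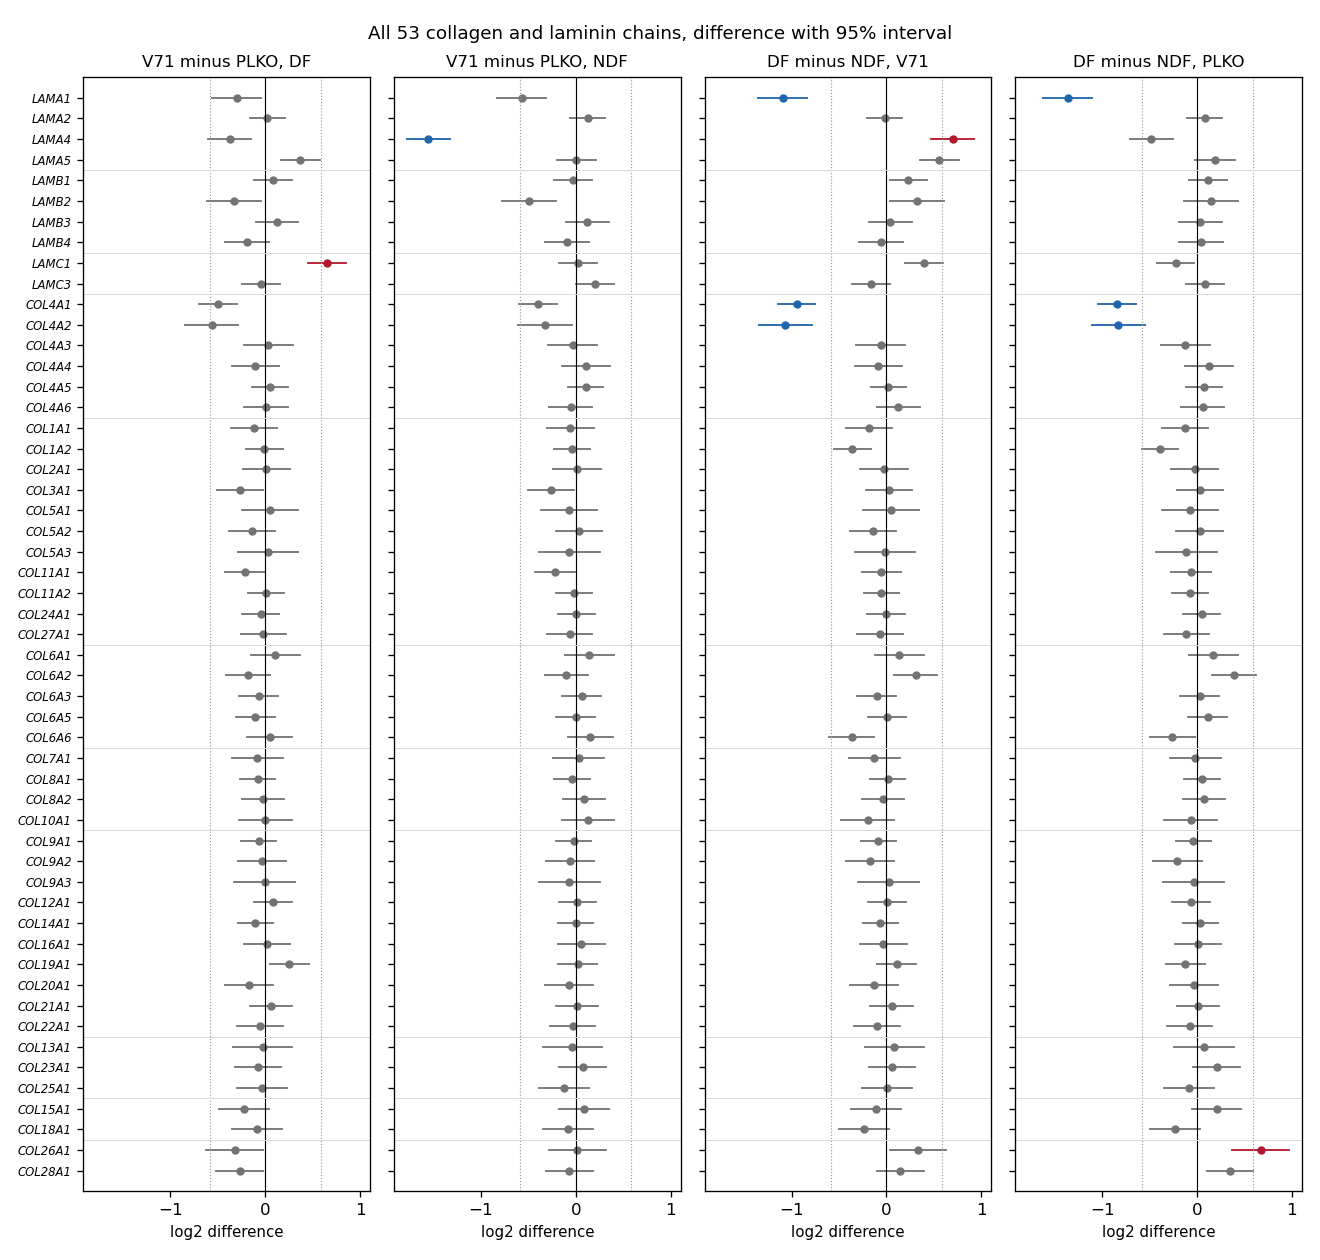
Log2 difference of each of the 53 chains in the 4 comparisons, with its 95% interval from limma. Red points were called higher, blue points were called lower and grey points were not called, and dotted lines mark a fold of 1.5. LAMA4 at -1.56 is the chain farthest from 0 between the lines in NDF, and LAMA1, COL4A1 and COL4A2 lie below -0.80 upon differentiation in both lines.

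LAMA4 encodes laminin α4, the alpha chain of laminins made by mesenchymal cells, endothelium and developing peripheral nerve. It was the chain that differed most between the lines in NDF. Its log2 level was 3.91 and 3.80 in V71 NDF cells, against 5.44 and 5.37 in PLKO NDF cells, a 2.94-fold lower level in V71 (log2 difference -1.56 ± 0.10 SE, limma adjusted p = 3.26e-05, 95% interval -1.78 to -1.33). After differentiation it was 4.67 and 4.43 in V71 DF cells, against 4.96 and 4.90 in PLKO DF cells. The groups still did not overlap, but the difference of -0.38 (95% interval -0.60 to -0.15) missed the threshold at an adjusted p of 0.0685. LAMA4 thus rose upon differentiation in V71 by 0.70 ± 0.10 on the log2 scale (1.62-fold, adjusted p = 0.00134), while in PLKO the difference was -0.48 ± 0.10 (1.4-fold lower, adjusted p = 0.0113), under the fold threshold. These 2 changes differed by 1.18 ± 0.14 (adjusted p = 0.00405, 95% interval 0.86 to 1.5), and LAMA4 was the only 1 of the 53 chains called in that test. Leaving out V71 DF replicate 1 gave a difference upon differentiation in V71 of 0.58 (adjusted p = 0.0119), just under the fold threshold. Without moderation of the variance the test between the 2 changes no longer passed (adjusted p = 0.171).

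Markers of S-type cells, the substrate-adherent, mesenchymal-like cells that neuroblastoma lines also hold, moved in the same comparison. Of 22 such markers, 0 were called higher and 7 lower in V71 in NDF, 0 higher and 2 lower in V71 in DF, 2 higher and 0 lower upon differentiation in V71, and 0 higher and 5 lower upon differentiation in PLKO. The shares of all genes called in these comparisons were 2.15%, 3.06%, 7.53% and 7.04%, in that order. This list, like the others below, was chosen with earlier results of these data known, so the shares do not test it. The 7 in NDF became 4 without PLKO NDF replicate 3. Their levels, taken off the log scale and summed per array, ranged over 989 to 1040 in V71 DF, 1401 to 1451 in PLKO DF, 980 to 1037 in V71 NDF and 1591 to 1601 in PLKO NDF. Averaged on the log2 scale, the 22 markers ranged over 4.23 to 4.36 in V71 DF and 4.45 to 4.46 in PLKO DF. In NDF they ranged over 4.25 to 4.31 in V71 and 4.75 to 4.79 in PLKO. On the summed scale, PDGFRA, a growth factor receptor of mesenchymal and glial precursors, made up most of the gap between the lines. Summed without it, a step chosen after its values were seen, the other 21 markers ranged over 905 to 971 in V71 DF, 881 to 897 in PLKO DF, 895 to 943 in V71 NDF and 1072 to 1082 in PLKO NDF, so that V71 was lower in NDF and not in DF. The number of the 22 below the lower quartile was 8 in V71 DF and 6 in each of the other groups. PDGFRA itself was at 6.40 and 6.55 in V71 NDF cells, against 8.99 and 9.05 in PLKO NDF cells (log2 difference -2.55), and at 6.11 and 6.40 in V71 DF cells, against 9.02 and 9.11 in PLKO DF cells (-2.81). Its gap between the lines was thus about as wide in DF as in NDF, unlike that of LAMA4. VIM, LUM, DCN, ANXA2 and SNAI2, 5 of the 22 markers, were called in the test between the 2 changes. Each had the more positive change in V71, as LAMA4 did, and 0 markers were called with the more negative one. Of all genes, 1.39% were called in that test. VIM, DCN and SNAI2, unlike LAMA4, did not rise in V71 (-0.29, -0.17 and -0.35) but fell in PLKO (-1.74, -1.07 and -1.46). LUM and ANXA2 had opposite signs (0.52 and 1.06 in V71, -0.71 and -0.58 in PLKO). DCN was below the lower quartile in both V71 groups, LUM in every group but PLKO NDF, and VIM in V71 DF. Background can set the size of a difference there. All 5 calls were lost without moderation of the variance. The part of S-type cells in the laminin result was not tested, and in bulk RNA fewer cells of a type and less RNA per cell cannot be told apart.

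LAMA1, which encodes laminin α1, the alpha chain of the earliest basement membranes of the mouse embryo, fell upon differentiation in both lines. In V71 it was at 3.80 and 3.74 in DF, against 4.72 and 5.0 in NDF, and in PLKO at 4.18 and 3.96 in DF, against 5.40 and 5.47 in NDF. Within each line every DF array was below every NDF array. The log2 difference was -1.09 ± 0.11 in V71 (2.13-fold lower, limma adjusted p = 0.000213) and -1.36 ± 0.11 in PLKO (2.57-fold lower, adjusted p = 4.31e-05), and the changes of the lines differed by 0.27 (95% interval -0.10 to 0.63, adjusted p = 0.712). In NDF the level in V71 was 0.57 below that in PLKO on the log2 scale (difference -0.57 ± 0.11, adjusted p = 0.0327), which at 1.48-fold was just short of the fold threshold, and it passed without V71 NDF replicate 3 (-0.71, adjusted p = 0.0275). In DF the difference was -0.30 (adjusted p = 0.212).

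LAMA5, the α5 chain of most mature epithelial and vascular basement membranes, was at 6.79 and 6.65 in V71 DF cells, 6.38 and 6.31 in PLKO DF cells, 6.10 and 6.22 in V71 NDF cells and 6.20 and 6.11 in PLKO NDF cells. Its difference upon differentiation in V71 was 0.56 ± 0.09 (adjusted p = 0.00321), 1.47-fold and so short of a call, and 0.19 in PLKO (adjusted p = 0.259). It passed the fold threshold without V71 NDF replicate 3 (0.62, adjusted p = 0.0111) and without V71 DF replicate 2 (0.63, adjusted p = 0.00965). The alpha chains therefore did not move as 1 group. In V71, LAMA1 fell and LAMA4 rose, LAMA5 had a positive difference short of the threshold, and LAMA2, the alpha chain of muscle and peripheral nerve laminins, differed by -0.02 (adjusted p = 0.94).

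LAMC1 encodes laminin γ1, the gamma chain shared by most laminin trimers. It was higher in V71 than in PLKO after differentiation, at 7.97 and 8.02 in V71 DF cells, against 7.30 and 7.40 in PLKO DF cells (1.57-fold, log2 difference 0.65 ± 0.09, limma adjusted p = 0.0028, 95% interval 0.45 to 0.85). Before differentiation it was at 7.54 and 7.66 in V71 NDF cells, against 7.61 and 7.54 in PLKO NDF cells, and the groups overlapped (0.03, 95% interval -0.17 to 0.22). Upon differentiation the difference was 0.40 in V71 (1.32-fold, adjusted p = 0.0151) and -0.23 in PLKO (adjusted p = 0.148), neither called. The changes of the 2 lines differed by 0.62 ± 0.12 (95% interval 0.34 to 0.90) at an adjusted p of 0.0592. This test passed when the arrays were quantile normalized again (adjusted p = 0.0444) and in 3 other settings. It stayed uncalled in 17 of 21 settings, those that left out 1 array included. The call in DF was lost without moderation of the variance (adjusted p = 0.0562).

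The common beta chains showed no called difference. LAMB1, the β1 chain, was at 9.30 and 9.42 in V71 DF cells, 9.28 and 9.27 in PLKO DF cells, 9.07 and 9.19 in V71 NDF cells and 9.20 and 9.12 in PLKO NDF cells, and its 4 differences lay between -0.03 and 0.23. LAMB2, the β2 chain of synaptic and muscle laminins, was at 5.34 and 5.58 in V71 NDF cells, against 6.09 and 5.82 in PLKO NDF cells (-0.50, adjusted p = 0.091). The groups did not overlap there, but the difference did not pass the test. LAMB3 and LAMB4 differed by -0.19 to 0.12, and LAMC3, a γ3 chain, by -0.16 to 0.20, none called.

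**Figure D2:**
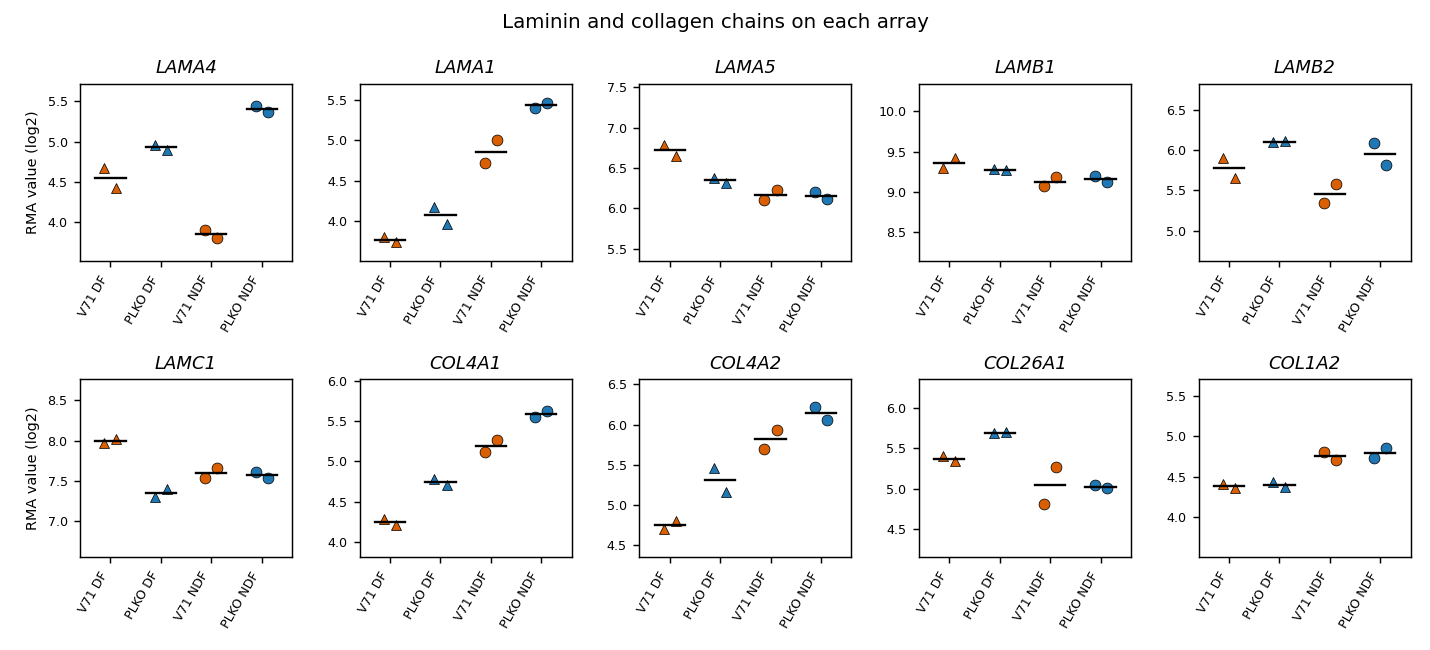
Log2 RMA level of 10 chains on each of the 8 arrays, 1 panel per chain, with V71 in orange, PLKO in blue, triangles for DF, circles for NDF and black bars for the mean of the 2 arrays. LAMA4 is lowest in V71 NDF, at 3.91 and 3.80, and highest in PLKO NDF, at 5.44 and 5.37, while for LAMA1, COL4A1 and COL4A2 the DF arrays lie below the NDF arrays of the same line.

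The stretches just upstream of the transcription starts of LAMA4 and LAMC1 are shown because these chains set the lines apart in opposite conditions. Both are the 250 bases before the RefSeq start in GRCh38.p14, read 5′ to 3′ on the gene's strand, chr6:112254568-112254817 on the minus strand for LAMA4 and chr1:183023170-183023419 on the plus strand for LAMC1. Capitals mark GGGCGG or its reverse complement CCGCCC, the letters of an Sp1-type GC box.
LAMA4: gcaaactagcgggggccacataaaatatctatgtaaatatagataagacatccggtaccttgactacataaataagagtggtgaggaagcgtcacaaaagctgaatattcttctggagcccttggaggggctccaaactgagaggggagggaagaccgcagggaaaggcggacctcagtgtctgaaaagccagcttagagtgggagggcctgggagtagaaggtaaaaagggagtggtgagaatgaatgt
LAMC1: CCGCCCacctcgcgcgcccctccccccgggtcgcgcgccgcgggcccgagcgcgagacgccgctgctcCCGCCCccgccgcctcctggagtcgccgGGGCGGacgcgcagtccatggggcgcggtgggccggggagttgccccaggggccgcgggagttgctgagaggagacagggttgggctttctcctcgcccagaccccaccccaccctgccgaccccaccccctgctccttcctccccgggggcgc
The LAMA4 stretch is 48.4% G and C and holds none of the 4 motifs searched on both strands, namely the CCAAT box, the GC box GGGCGG, the TATA box written as TATAAA, and the nuclear receptor element AGGTCA. The LAMC1 stretch is 79.6% G and C and holds GGGCGG 3 times, at positions 1, 69 and 97 from its 5′ end. Over 35116 promoter windows of the same length, the median content of G and C was 58.0%, GGGCGG was present in 42.6%, CCAAT in 32.0%, TATAAA in 10.7% and AGGTCA in 12.1%. A match in these windows is a description of the letters and not of a factor bound there.

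COL4A1 and COL4A2, the chains of the ubiquitous collagen IV trimer, fell together upon differentiation in both lines. COL4A1 was at 4.28 and 4.21 in V71 DF, against 5.12 and 5.26 in V71 NDF (1.93-fold lower, log2 difference -0.95 ± 0.09, limma adjusted p = 0.000103). In PLKO it was at 4.78 and 4.71 in DF, against 5.55 and 5.62 in NDF (1.79-fold lower, -0.84 ± 0.09, adjusted p = 0.00018). COL4A2 was at 4.70 and 4.80 in V71 DF, against 5.70 and 5.93 in V71 NDF (2.09-fold lower, -1.07 ± 0.12, adjusted p = 0.000421). In PLKO it was at 5.46 and 5.16 in DF, against 6.22 and 6.06 in NDF (1.78-fold lower, -0.83 ± 0.12, adjusted p = 0.00192). Within each line all DF arrays were below all NDF arrays for both chains. The changes of the 2 lines differed by -0.11 for COL4A1 (95% interval -0.39 to 0.18) and by -0.24 for COL4A2 (95% interval -0.63 to 0.16), neither called. The call of COL4A2 in PLKO was lost without moderation of the variance (adjusted p = 0.0682).

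Both chains were also lower in V71 than in PLKO arrays of the same condition, by less than the fold threshold. In DF the difference was -0.50 for COL4A1 (1.42-fold lower, adjusted p = 0.0113) and -0.56 for COL4A2 (1.48-fold lower, adjusted p = 0.0332), and that of COL4A2 passed the fold threshold without PLKO DF replicate 2 (-0.72, adjusted p = 0.0248). In NDF it was -0.39 for COL4A1 (adjusted p = 0.0519) and -0.33 for COL4A2 (adjusted p = 0.294). The other 4 collagen IV chains, COL4A3 to COL4A6, which form the specialised networks of kidney, eye and smooth muscle, differed by -0.12 to 0.13 over the 4 comparisons and none was called.

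COL4A1 and COL4A2 lie head to head on chromosome 13, with COL4A1 on the minus and COL4A2 on the plus strand, and the bases between their RefSeq starts serve as the promoter of both. This stretch is shown because the 2 chains moved together. It is chr13:110307158-110307283 of GRCh38.p14, given 5′ to 3′ on the plus strand, with CCAAT at position 22 and GGGCGG at position 62 in capitals.
COL4A1 and COL4A2: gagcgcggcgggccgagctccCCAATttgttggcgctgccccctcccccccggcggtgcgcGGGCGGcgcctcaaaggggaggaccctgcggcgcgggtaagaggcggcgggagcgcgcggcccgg
It is 126 bases long and 80.2% G and C, and of the 4 motifs only CCAAT and GGGCGG were found, each once. Of the 39 chains with a promoter in the table, GGGCGG was in 23, CCAAT in 9, TATAAA in 4 and AGGTCA in 2.

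Among the other collagens, 1 chain was called. COL26A1, a little studied collagen first described in testis and ovary of the mouse, rose upon differentiation in PLKO, to 5.69 and 5.70 in DF, against 5.04 and 5.01 in NDF (1.59-fold, log2 difference 0.67 ± 0.13, limma adjusted p = 0.00931). In V71 it was at 5.40 and 5.34 in DF, against 4.81 and 5.27 in NDF, where the 2 replicates lay far apart (0.33, adjusted p = 0.156). The difference between these changes was -0.34 (95% interval -0.76 to 0.09) and was not called. The call in PLKO was lost without PLKO NDF replicate 2 (0.69, adjusted p = 0.0558), without PLKO NDF replicate 3 (0.65, adjusted p = 0.0728) and without moderation of the variance (adjusted p = 0.127).

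The 11 fibrillar chains gave no call. COL1A2, the α2 chain of type I collagen, came nearest, at 4.41 and 4.36 in V71 DF, 4.43 and 4.37 in PLKO DF, 4.80 and 4.70 in V71 NDF and 4.73 and 4.85 in PLKO NDF. Its difference upon differentiation was -0.36 in V71 (1.28-fold lower, adjusted p = 0.0226) and -0.39 in PLKO (1.31-fold lower, adjusted p = 0.0156), under the fold threshold in both. COL1A1, its partner in the type I trimer, differed by -0.19 in V71 (adjusted p = 0.36) and -0.13 in PLKO (adjusted p = 0.59). COL3A1, which forms type III fibrils, was 0.03 apart upon differentiation in each line and -0.26 and -0.27 between the lines in NDF and DF, none called.

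Collagen VI is built of 3 chains, and COL6A1 and COL6A2, which neighbour each other on chromosome 21, are the constant ones. COL6A2 was at 6.70 and 6.59 in V71 DF, 6.95 and 6.71 in PLKO DF, 6.29 and 6.39 in V71 NDF and 6.41 and 6.47 in PLKO NDF, with every DF array above every NDF array of its line. The difference upon differentiation was 0.39 in PLKO (1.31-fold, adjusted p = 0.0335) and 0.31 in V71 (adjusted p = 0.0847), and that of COL6A1 was 0.17 and 0.14. COL6A6 differed by -0.37 in V71 (1.29-fold lower, adjusted p = 0.0485), with 3 of its 4 group means below the lower quartile of the arrays, where background can set the size of a difference.

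The remaining chains gave no call. COL28A1, a collagen known from peripheral nerve in the mouse, was at 3.84 and 3.90 in PLKO DF, against 3.63 and 3.42 in PLKO NDF (0.35, adjusted p = 0.0732), and differed by -0.27 between the lines in DF (adjusted p = 0.246). The 10 fibril-associated collagens differed by -0.21 to 0.25 over the 4 comparisons, the 3 analysed transmembrane collagens by -0.12 to 0.21 and the 4 network collagens by -0.20 to 0.13. The multiplexins COL15A1 and COL18A1, whose ends are released as endostatins, differed by -0.24 to 0.21. The precision of the arrays is shown by the intervals of the chains that were not called. The 95% interval lay wholly within 1.5-fold either way for 48 of 52 uncalled chains between lines in NDF, 47 of 52 between lines in DF, 44 of 49 upon differentiation in V71 and 45 of 49 upon differentiation in PLKO. For the other uncalled chains the interval reached past 1.5-fold, LAMA1 between lines in NDF and COL4A1 and COL4A2 between lines in DF among them. At an unadjusted p under 0.05, 7, 11, 8 and 6 uncalled chains passed in these 4 comparisons.

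Set side by side, the changes of the chains upon differentiation correlated between the 2 lines. Pearson's r across the 53 chains was 0.721, and 0.684 over the 47 chains without the 6 called ones. It was not computed over all genes, so it is not shown to be particular to these chains. The lines share no arrays, but chains are not independent replicates and no p is given. LAMA1, COL4A1 and COL4A2 were called lower in both lines, and no chain was called between the lines in both NDF and DF. LAMA4 and LAMC1 lay farthest from equal change, each positive in V71 and negative in PLKO, by 1.18 and 0.62.

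**Figure D3:**
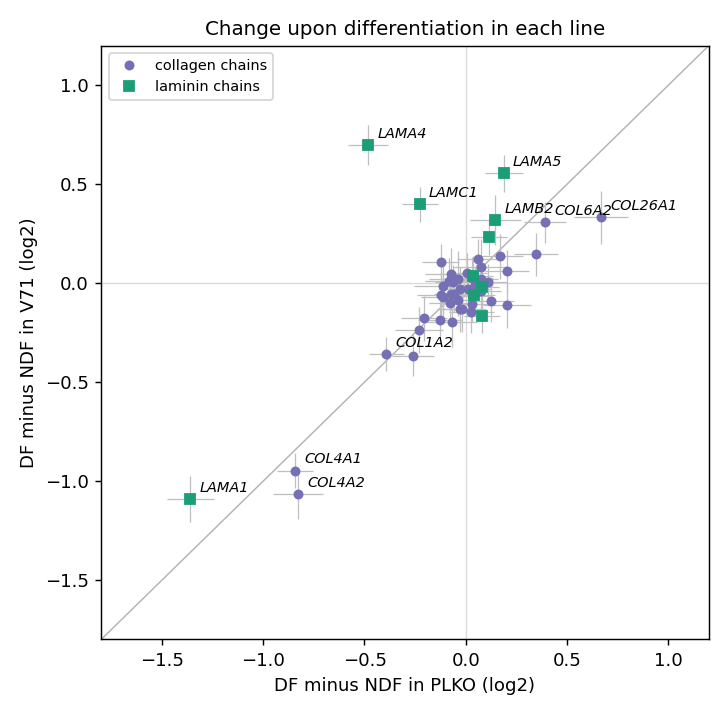
Change upon differentiation (DF minus NDF, log2) of the 53 chains in V71 and in PLKO, with collagens as purple circles, laminins as green squares, bars for the standard error and a line of equal change. LAMA1, COL4A1 and COL4A2 lie in the lower left corner, and LAMA4, at 0.70 in V71 and -0.48 in PLKO, lies farthest from the line.

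Partners of these chains in the basement membrane were counted from a list of 16 genes. In V71 against PLKO, 1 was called higher and 3 lower in NDF, and 0 higher and 1 lower in DF. Upon differentiation 1 was called higher and 1 lower in V71, and 1 higher and 3 lower in PLKO. Of all genes, 2.15% were called between lines in NDF, 3.06% in DF, 7.53% upon differentiation in V71 and 7.04% in PLKO. The 1 lower in DF was NID1. NID1 encodes nidogen-1, which links laminin γ1 to collagen IV. It was at 3.45 and 3.68 in V71 NDF cells, against 5.25 and 5.05 in PLKO NDF cells (-1.59 ± 0.14, limma adjusted p = 0.000209), and at 3.14 and 3.52 in V71 DF cells, against 4.12 and 4.05 in PLKO DF cells (-0.76, adjusted p = 0.0123). Its call in DF was lost without PLKO DF replicate 1 (-0.73, adjusted p = 0.0772) and without V71 DF replicate 1 (-0.57, adjusted p = 0.0839). NID1 fell upon differentiation in PLKO by 1.07 on the log2 scale (adjusted p = 0.000679), and in V71 the difference was -0.24 (adjusted p = 0.348). NID1 was thus lower in V71 NDF cells together with LAMA4, and the V71 and PLKO arrays did not overlap in either condition. Without moderation of the variance its calls were lost between lines in NDF (adjusted p = 0.0827), between lines in DF (adjusted p = 0.186) and in PLKO (adjusted p = 0.0542).

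FRAS1 and FREM1 encode members of the complex that anchors embryonic epithelia to the basement membrane. FRAS1 was at 4.98 and 5.05 in V71 NDF cells, against 5.97 and 5.86 in PLKO NDF cells (-0.89 ± 0.09, limma adjusted p = 0.000675). FREM1 was at 4.40 and 4.57 in V71 NDF cells, against 5.23 and 5.13 in PLKO NDF cells (-0.70 ± 0.09, adjusted p = 0.00334), a call lost without PLKO NDF replicate 2 (-0.65, adjusted p = 0.0522). Both were lower in V71 NDF cells, and after differentiation neither difference between the lines was called (0.08 for FRAS1, adjusted p = 0.749, and -0.37 for FREM1, adjusted p = 0.0568). FBLN1, the basement membrane protein fibulin-1, fell alike in the 2 lines, to 5.87 and 5.71 in V71 DF, against 6.69 and 6.93 in V71 NDF (-1.02 ± 0.11, adjusted p = 0.000198), and to 5.76 and 5.73 in PLKO DF, against 6.85 and 6.73 in PLKO NDF (-1.04 ± 0.11, adjusted p = 0.000149). Its direction in both lines was that of LAMA1, COL4A1 and COL4A2. EGFLAM, the matrix protein pikachurin, was the partner called higher between the lines in NDF (0.61, adjusted p = 0.017), and not without PLKO NDF replicate 3 (0.46, adjusted p = 0.156), V71 NDF replicate 2 (0.63, adjusted p = 0.0883) or V71 NDF replicate 3 (0.60, adjusted p = 0.0979). Without moderation the calls in NDF were lost for FRAS1 (adjusted p = 0.0583), FREM1 (adjusted p = 0.0877) and EGFLAM (adjusted p = 0.197), while both calls of FBLN1 held.

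Of 13 analysed receptors of collagens and laminins, 0 were called higher and 1 lower in V71 NDF against PLKO NDF, and 2 higher and 0 lower in V71 DF against PLKO DF. Upon differentiation 1 was called higher in V71 and 1 lower in PLKO. The shares of all genes were 2.15% between lines in NDF, 3.06% in DF, 7.53% in V71 and 7.04% in PLKO. Leaving out 1 array gave 0 to 2 calls between lines in DF (0 without PLKO DF replicate 1, 1 without V71 DF replicate 1), 0 to 2 in V71 (0 without V71 NDF replicate 2, 2 without V71 NDF replicate 3 or V71 DF replicate 2) and 1 to 2 in PLKO (2 without PLKO NDF replicate 2 or PLKO DF replicate 1). ITGA2, the integrin α2 subunit of a collagen receptor, was at 3.94 and 4.03 in V71 NDF cells, against 4.97 and 5.07 in PLKO NDF cells (-1.03 ± 0.11, limma adjusted p = 0.00081). ITGA6, the α6 subunit of laminin-binding integrins, was at 3.98 and 4.06 in V71 DF cells, against 3.28 and 3.38 in PLKO DF cells (0.69 ± 0.11, adjusted p = 0.00687), a call lost without PLKO DF replicate 1 (0.64, adjusted p = 0.0529). ITGA6 and LAMC1 were thus higher in the same V71 DF arrays. DDR2, a receptor tyrosine kinase that binds fibrillar collagen, was at 8.24 and 8.12 in V71 DF cells, against 7.46 and 7.62 in PLKO DF cells (0.64 ± 0.09, adjusted p = 0.00444). Without PLKO DF replicate 1 (0.56, adjusted p = 0.0356) or V71 DF replicate 1 (0.58, adjusted p = 0.044) this difference was under the fold threshold. DDR2 fell upon differentiation in PLKO by 0.92 on the log2 scale (adjusted p = 0.000153), and in V71 its difference was -0.43 (adjusted p = 0.0139), under the fold threshold. Without moderation the call between the lines was lost for ITGA2 (adjusted p = 0.0891), ITGA6 (adjusted p = 0.131) and DDR2 (adjusted p = 0.0797), while that of DDR2 in PLKO held.

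**Figure D4:**
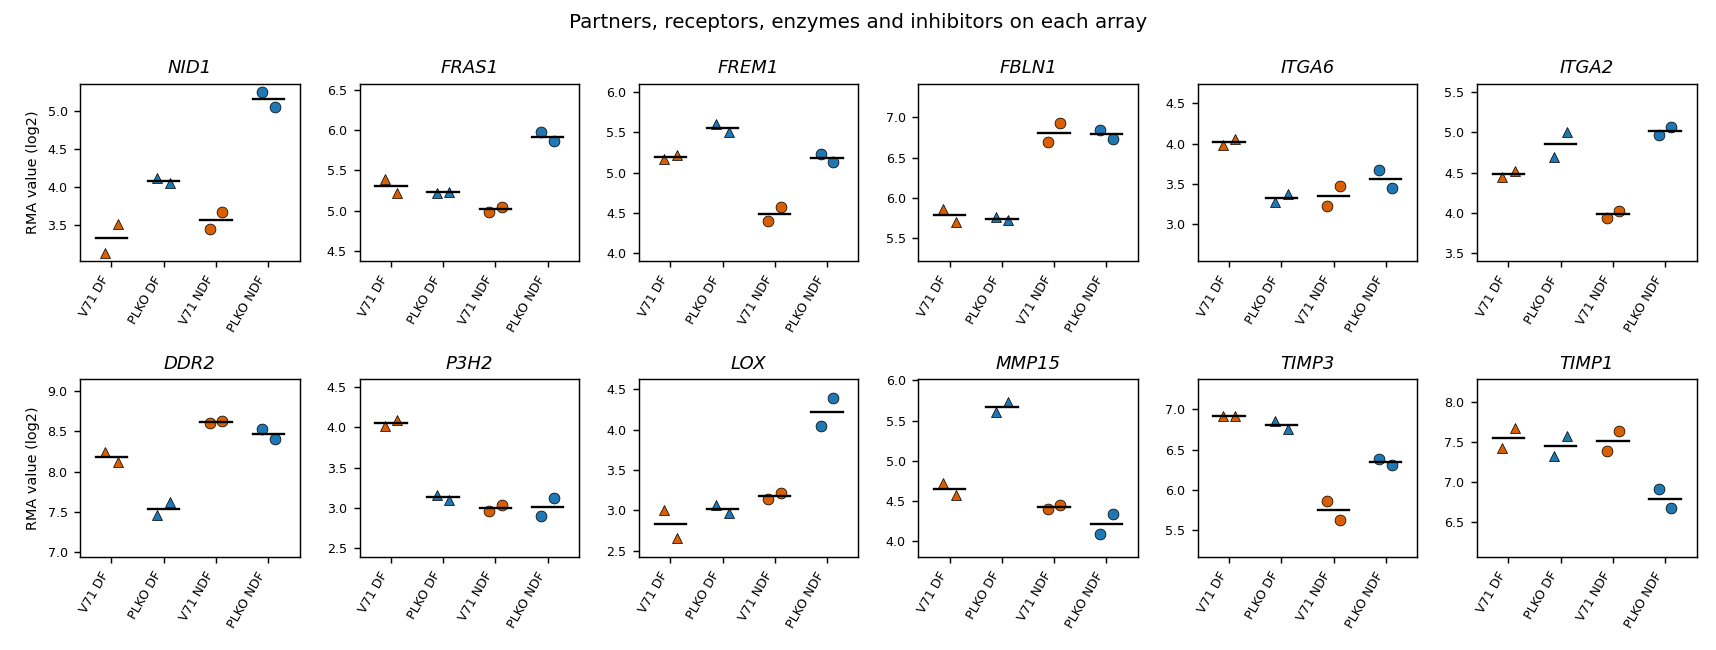
Log2 RMA level of 12 partner, receptor, enzyme and proteinase genes on each of the 8 arrays, with V71 in orange, PLKO in blue, triangles for DF, circles for NDF and black bars for the mean of the 2 arrays. NID1 is lower in V71 than in PLKO arrays in both conditions, FBLN1 is lower in the DF arrays of both lines, and ITGA6 is highest in the 2 V71 DF arrays, at 3.98 and 4.06.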

How the data were processed

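RNA of 8 cultures was measured on 8 arrays. The authors deposited log2 values made by robust multi-array averaging (RMA) in Partek 6.5, and these were used with no further step. Of 28869 rows, 19310 carry 1 gene, 1752 several and 7807 none in the annotation supplied with the platform. A gene was a row with 1 symbol, and for the 685 genes with several rows (COL11A2 among the chains) the row with the highest mean stood for it. A row shared by a collagen chain and another gene was left out. Samples were grouped by the codes in their titles.

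All 8 arrays entered 1 limma 3.58.1 fit (R 4.3.3) of the 4 group means, moderated by eBayes (4 residual and 5.43 prior degrees of freedom), with Benjamini-Hochberg adjustment of p over every row. A call needed an adjusted p under 0.05 with at least a 1.5-fold difference, the limits given in the methods. The fit was tested on simulated data with normal noise, where it called 33 of 50 rows changed 1.8-fold. It called 43 of 50 at 2-fold and 50 of 50 at 3-fold and at 4-fold. The number of arrays limits the precision, and the median residual SD was 0.0996. Differences were taken within a row. Different rows were combined or ranked by level for the lower quartile, the choice of 1 row per gene and the marker levels.

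The members and lists were chosen with earlier results of these data known. Named with values were every called chain, its trimer partners and neighbours, chains past the adjusted p alone, and up to 4 called genes per list and comparison. COL3A1, LAMA2, LAMB3, LAMB4, LAMC3, COL15A1, COL18A1 and COL28A1 were named besides. The lists were collagen processing enzymes and chaperones (31 of 32 genes analysed), basement membrane partners (16), receptors (13 of 16), collagenases, gelatinases and their inhibitors (22), and markers of S-type (22), noradrenergic (13 of 15) and Schwann cells (6 of 10). Promoters came from RefSeq (GRCh38.p14), where 39 of 53 chains matched by symbol, and each window holds 250 bases before and 50 after the start. The alternatives were no moderation, a trended and robust prior, 3 further normalizations, a filter on dim rows, the mean over a gene's rows, array weights, other thresholds, adjustment over rows with 1 gene, the compared arrays alone, leaving out each array, and a block for the replicate number. Replicates are numbered 2 and 3 in NDF and 1 and 2 in DF. Deviations of arrays with the same number correlated at -0.18 in NDF and 0.19 in DF, so the numbers were not taken as pairs.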

Additional observations from a re-analysis of the deposited data

Results flagged for a closer look

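The change upon differentiation differed between the lines, by the test of the difference itself in limma, for 1 chain and for 11 genes of the lists. For LAMA4 the change in V71 minus that in PLKO was 1.18 (adjusted p = 0.00405), with opposite signs in the 2 lines. Among the partners, receptors and enzymes the value was 0.98 for FRAS1 (adjusted p = 0.0074), 0.91 for ITGA6 (adjusted p = 0.0317), 0.94 for P3H2 (adjusted p = 0.0119) and -1.24 for MMP15 (adjusted p = 0.00432). Among the S-type markers it was 1.44 for VIM (adjusted p = 0.00446), 1.23 for LUM (adjusted p = 0.0181), 0.90 for DCN (adjusted p = 0.0348), 1.64 for ANXA2 (adjusted p = 0.0107) and 1.11 for SNAI2 (adjusted p = 0.00408). Among the noradrenergic markers it was 1.55 for GAP43 (adjusted p = 0.000458) and -0.87 for CHGA (adjusted p = 0.0142). All 12 tests but those of LAMA4, VIM, MMP15, GAP43 and SNAI2 lost their call when at least 1 array was left out, and all 12 lost it without moderation of the variance. The highest adjusted p with an array left out was 0.0525 for FRAS1 (PLKO NDF replicate 2), 0.157 for ITGA6 (PLKO NDF replicate 2), 0.0682 for P3H2, 0.106 for LUM, 0.0994 for CHGA and 0.0695 for ANXA2 (PLKO NDF replicate 3 for these 4), and 0.143 for DCN (V71 DF replicate 1). Groups of 2 arrays were not examined for outliers.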

How the results depend on the processing

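Of 451 values of the chains named for a call or for an adjusted p alone, recomputed under the alternatives, 420 kept their side of the threshold, 13 lost it, 18 gained it and 0 changed direction. For the list genes called, 1326 of 1473 values kept it, 147 lost it and 0 changed direction. Part of these tallies was fixed in advance. With no fold threshold, a chain named for its adjusted p alone had to gain a call, and a called gene could not lose it. Leaving out an array outside a comparison did not change the difference. The number of chains called between lines in NDF was 2 with no fold threshold, against 1. Between lines in DF it was 0 without moderation, 3 with no fold threshold and 0 at a fold of at least 2, against 1. Upon differentiation in V71 it was 8 with no fold threshold and 2 at a fold of at least 2, against 4. Upon differentiation in PLKO it was 2 without moderation, 7 with no fold threshold and 1 at a fold of at least 2, against 4. For the difference between the 2 changes it was 0 without moderation, and 2 with a trended and robust prior, with quantile normalization again, with cyclic loess and with adjustment over rows with 1 gene, against 1; the chain gained was LAMC1. Leaving out each array in turn gave 1 to 2 chains between lines in NDF, 1 to 2 between lines in DF, 3 to 5 upon differentiation in V71, 3 to 4 in PLKO and 1 for the difference. With the replicate block 1 chain was called between lines in NDF, 1 in DF and 1 for the difference, and crossing the NDF numbers, chosen after seeing the data, gave 1, 1 and 1. The block changed no call of a chain, and among the list genes it ended those of the difference between the 2 changes for CHGA (adjusted p = 0.052) and ITGA6 (adjusted p = 0.0847), and the crossed block ended that of DCN (adjusted p = 0.0802). No paired analysis was possible for DF against NDF because these share only 1 number. Further normalization moved the median of all genes by under 0.1. With 1 line per code and labels that run against the methods, the differences between the lines are not credited to the shRNA here.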

Other observations

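Genes that modify, cut or protect these chains were counted as well. Of 31 analysed collagen processing enzymes and chaperones, 0 were called higher and 1 lower between lines in NDF, 1 higher and 0 lower in DF, 1 higher and 1 lower upon differentiation in V71, and 0 higher and 2 lower in PLKO. Among all genes the shares called were 2.15%, 3.06%, 7.53% and 7.04%, and the counts of this list were close to them. P3H2, a prolyl 3-hydroxylase that acts on collagen IV, was at 4.02 and 4.09 in V71 DF cells, against 3.16 and 3.10 in PLKO DF cells (0.92 ± 0.10, limma adjusted p = 0.000651), with both NDF groups below the lower quartile of the arrays. It was thus highest in V71 DF, where it still lay below the array medians of 4.60 to 4.68. COL4A1 and COL4A2 were lowest in that group, and a link was not tested. LOX, lysyl oxidase, which cross-links collagen, was at 3.14 and 3.21 in V71 NDF cells, against 4.05 and 4.39 in PLKO NDF cells (-1.04 ± 0.14, adjusted p = 0.00331), and both DF groups were below the lower quartile. Without moderation of the variance the calls between the lines were lost for P3H2 (adjusted p = 0.0523) and LOX (adjusted p = 0.165). The calls in this list were 2 between lines in DF without PLKO DF replicate 2 or V71 DF replicate 2, 1 upon differentiation in V71 without V71 NDF replicate 2 or V71 DF replicate 1, and 4 in PLKO without PLKO DF replicate 2.

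Of 22 collagenases, gelatinases and their inhibitors, 1 was called higher and 1 lower between lines in NDF, 0 higher and 1 lower in DF, 1 higher and 0 lower upon differentiation in V71, and 4 higher and 0 lower in PLKO. The all-gene shares for these comparisons were again 2.15%, 3.06%, 7.53% and 7.04%. MMP15, a membrane-anchored matrix metalloproteinase, was at 4.72 and 4.57 in V71 DF cells, against 5.61 and 5.73 in PLKO DF cells (-1.02 ± 0.11, limma adjusted p = 0.000619), and rose upon differentiation in PLKO by 1.45 on the log2 scale (adjusted p = 1.77e-05). The PLKO DF arrays were the highest for it. TIMP3, the matrix-bound metalloproteinase inhibitor, rose upon differentiation in V71, to 6.91 and 6.91 in DF, against 5.86 and 5.63 in NDF (1.17 ± 0.10, adjusted p = 4.85e-05). In PLKO it was at 6.85 and 6.76 in DF, against 6.38 and 6.31 in NDF. That difference was not called, nor was the one between the changes of the 2 lines. TIMP1, a secreted inhibitor, was 0.72 higher in V71 NDF than in PLKO NDF (adjusted p = 0.0231), a call lost without PLKO NDF replicate 2 (0.83, adjusted p = 0.0673), PLKO NDF replicate 3 (0.60, adjusted p = 0.232) or V71 NDF replicate 3 (0.59, adjusted p = 0.152). Without any 1 of these 3 arrays, 0 of the 22 were called between lines in NDF, the difference of TIMP3 included. Without moderation the calls between the lines were lost for MMP15 (adjusted p = 0.0616), TIMP3 (adjusted p = 0.138) and TIMP1 (adjusted p = 0.257). The 4 calls upon differentiation in PLKO were 1 without PLKO NDF replicate 3 and 2 without PLKO DF replicate 2, and the 1 in V71 was 2 without V71 NDF replicate 3 or either V71 DF array.

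Of the 13 noradrenergic markers, 2 were called higher and 0 lower between lines in NDF, 2 higher and 1 lower in DF, 4 higher and 2 lower upon differentiation in V71, and 2 higher and 1 lower in PLKO. Shares of all genes called were 2.15%, 3.06%, 7.53% and 7.04% in turn. The 2 in NDF were 1 without PLKO NDF replicate 3.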
